A study of Mus musculus with 2 samples.

Results

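The clustered protocadherins are cadherin-like adhesion proteins encoded by neighbouring genes in an alpha, a beta and a gamma cluster on mouse chromosome 18. The members described here are the genes whose deposited name starts with Pcdha, Pcdhb or Pcdhg followed by a letter or digit and that had a read in both libraries. They numbered 33 of 14631 mouse genes with a read in both libraries. The GENCODE M21 annotation holds 57 genes of the clusters, so the members were 4 of 13 alpha genes, 15 of 22 beta genes and 14 of 22 gamma genes. By deposited name, another 6 cluster genes had a read in replicate 1 alone, 7 had one in replicate 2 alone, and 11 had none in either library.

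The study sequenced RNA of the left cerebral cortex by long reads, which can span a whole transcript, though some reads here held only a last exon. The labels give 1 group, male B6CASTF1/J mice (an F1 hybrid of the B6 and CAST strains) 14 days old, with 2 biological replicates and no treatment. Each library was made from 2 µg of total RNA with spike-in RNAs added. The labels give both samples 1 donor identifier and speak of more than 1 male, so pooled animals are possible. The p-values set the difference between these 2 libraries against counting error only, and that difference may be technical. Replicate 1 held 775048 mouse reads and replicate 2 held 924222.

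In the alpha and gamma clusters each gene has its own promoter and its own large variable exon, which encodes the extracellular cadherin repeats, the membrane span and part of the cytoplasmic tail. That exon is spliced to constant exons shared by all genes of the cluster. Beta genes are single exons with no constant part. Single neurons are known to choose a few of the variable promoters, through the insulator protein CTCF, cohesin and DNA methylation, and the resulting surface proteins bind identical proteins on other membranes, which lets a neuron tell its own branches from those of others. The C-type genes at the 3′ ends of the alpha and gamma clusters (Pcdhac1, Pcdhac2, Pcdhgc3, Pcdhgc4 and Pcdhgc5) have more divergent sequences and are regulated differently from the others.

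On the mm10 assembly the alpha genes span chr18:36930184-37187661 and end in constant exons of 59, 89 and 2716 bases. The first beta gene, Pcdhb1, starts at chr18:37264938, and the last, Pcdhb22, ends at chr18:37524479. The gamma genes span chr18:37661793-37841873 and end in constant exons of 59, 89 and 1971 bases. All of them lie on the plus strand.

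By the names in the deposited tables, the gamma members took most reads, 318 in replicate 1 and 372 in replicate 2, against 75 and 92 for the beta members and 61 and 63 for the alpha members. In CPM, the reads of a gene scaled to the mouse reads of its library, the gamma members summed to 406 ± 5.51 (SD, n = 2), the beta members to 98.2 ± 1.96 and the alpha members to 73.4 ± 7.45. Set as log2 of replicate 2 over replicate 1, the ratio for the gamma total was −0.03 (95% interval from the counts, −0.24 to 0.19), that for beta 0.04 (−0.40 to 0.48) and that for alpha −0.21 (−0.71 to 0.30). All 3 intervals held 0, so no difference beyond counting error was seen, but they also allow differences up to their bounds. The totals were not tested. The intervals cover counting error only. Known models alone gave a lower alpha total, 45.8 CPM. The alpha ratio also depends on the rule for members. It leaves out 20 reads named Pcdha1, all in replicate 2, that hold only the last alpha constant exon. It keeps 6 reads of the same kind named Pcdhac2, all in replicate 1. Over all alpha genes by name, the reads were 64 in replicate 1 and 83 in replicate 2.

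Single members were low. The median member had 5.06 CPM against 19.8 CPM for all 14631 genes. Pcdhgc5, the last variable exon of the gamma cluster, whose protein has been found at GABAergic synapses, led with 149 reads in replicate 1 and 135 in replicate 2 (169 ± 32.7 CPM, SD, n = 2) and ranked 1091 among all genes. Pcdhgc3, which binds the scaffold Axin1 and supports dendrite branching, followed with 51 and 75 reads (73.5 ± 10.9 CPM). Pcdhac2, needed for the spacing of serotonergic axons, had 34 and 41 reads (44.1 ± 0.349 CPM), and Pcdhgc4, needed for the survival of interneurons, had 31 and 37 reads (40.0 ± 0.0256 CPM). Of the C-type members, Pcdhac1 alone was rare, with 4 reads in replicate 1 and 1 in replicate 2.

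Each read was counted as 1 whatever its length, so these levels were not divided by length. Whether transcript length affected which molecules were read was not tested. Divided by the longest annotated transcript, the order at the top was Pcdhgc5 (29.3 CPM per kb), Pcdhgc3 (15.7), Pcdhga2 (12.8), Pcdhgc4 (7.96) and Pcdhac2 (7.49). Pcdhga2 stood among the highest by name, but almost none of its reads held its own exon, as described under structure. In bulk tissue, a lower level from fewer expressing cells cannot be told apart from less RNA per cell.

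**Figure D1:**
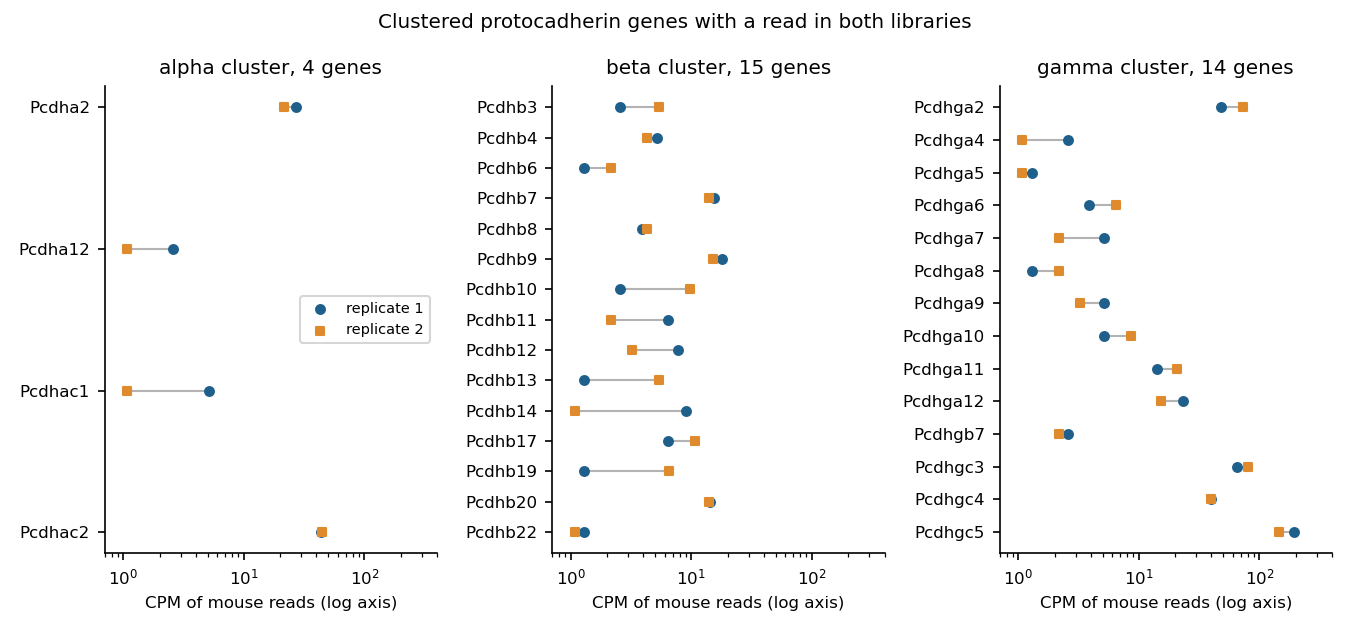
Level of each of the 33 members in CPM of mouse reads (log axis) by deposited name, in 5′ to 3′ or numerical order within each cluster, with a circle for replicate 1 and a square for replicate 2. Pcdhgc5 is highest at 169 CPM on average, and the grey line between the libraries is longest for members with few reads, such as Pcdhb14 with 7 and 1 reads.

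Among the other gamma A members, which carry the plain alternate exons of that cluster, Pcdhga12 had 18 reads in replicate 1 and 14 in replicate 2, Pcdhga11 had 11 and 19, Pcdhga10 had 4 and 8, and Pcdhga6 had 3 and 6. The remaining gamma A members, Pcdhga4, Pcdhga5, Pcdhga7, Pcdhga8 and Pcdhga9, had 1 to 4 reads in a library. Pcdhgb7, with 2 reads in each library, was the only gamma B member. The other gamma B genes had few reads or none: Pcdhgb1, Pcdhgb5, Pcdhgb6 and Pcdhgb8 had 1 to 3 reads in replicate 1 and none in replicate 2, Pcdhgb4 had 1 read in replicate 2 alone, and Pcdhgb2 had none. The read named Pcdhgb5 belongs to a model listed as 1 base long.

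Beta members were spread more evenly. Pcdhb9 had 14 reads in each library, Pcdhb7 had 12 and 13, Pcdhb20 had 11 and 13, Pcdhb17 had 5 and 10, and Pcdhb10 had 2 and 9. The other 10 beta members, Pcdhb3, Pcdhb4, Pcdhb6, Pcdhb8, Pcdhb11, Pcdhb12, Pcdhb13, Pcdhb14, Pcdhb19 and Pcdhb22, had 1 to 7 reads in a library. Pcdhb16, Pcdhb18 and Pcdhb21 had 1 or 2 reads in replicate 2 alone, and Pcdhb1, Pcdhb2, Pcdhb5 and Pcdhb15 had none. The coding parts of beta exons are alike, with a median identity of 73.2% between pairs (54.7% to 89.7%), and Pcdhb7 and Pcdhb9 share 89.7% of their bases, as do Pcdhb6 and Pcdhb8. How the authors' counting would split reads between such near copies was not tested.

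These counts go by deposited name. A count of 0 in these libraries allows up to 3 reads, so a gene without a read under its name was not detectable by name at this depth. Without a read of their name in either library were also Pcdha3, Pcdha4, Pcdha5, Pcdha7, Pcdha8 and Pcdha9. Pcdha6 and Pcdha11 had 1 and 2 reads of their names in replicate 1 alone. Parts of the Pcdha4, Pcdha5, Pcdha6, Pcdha9 and Pcdha11 exons did occur in reads named Pcdha2, joined to the Pcdha12 exon, as described under Pcdha12. Pcdhga1 and Pcdhga3 had 1 and 2 reads in replicate 2 alone.

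Whether the members differed between the libraries was asked with Fisher's exact test, two-sided, of each gene's reads against all other mouse reads, adjusted by the Benjamini-Hochberg method over the 11203 genes whose reads in the 2 libraries summed to at least 10. The test sets the libraries against counting error, not against variation between animals. Over all genes 2.11% were called at an adjusted p under 0.05 (236 genes). Of the 33 members, 14 had enough reads to be tested and 0 were called. Fisher's exact test gave 2 of them an unadjusted p under 0.05, Pcdhgc5 and Pcdhga2, and the smallest adjusted p over the tested members was 0.318. With exact binomial tests on the library sizes of edgeR and DESeq2, 0 were called as well. Of the tested members, 7 had a log2 ratio above 0 and 7 below, with a median of 0.01 against −0.01 over all genes tested.

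For Pcdhgc5 the log2 ratio, replicate 2 against replicate 1, came to −0.40 (95% interval −0.73 to −0.06; p = 0.0234 by Fisher's exact test, adjusted p = 0.318). For Pcdhga2, with 37 and 67 reads, it was 0.59 (0.02 to 1.17; p = 0.0485 by Fisher's exact test, adjusted p = 0.440). The intervals of the other 12 tested members held 0, as for Pcdhgc3 at 0.30 (−0.21 to 0.81), Pcdhac2 at 0.01 (−0.64 to 0.66) and Pcdhgc4 at −0.0024 (−0.69 to 0.68). The widths of these intervals are what the depth allows.

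**Figure D2:**
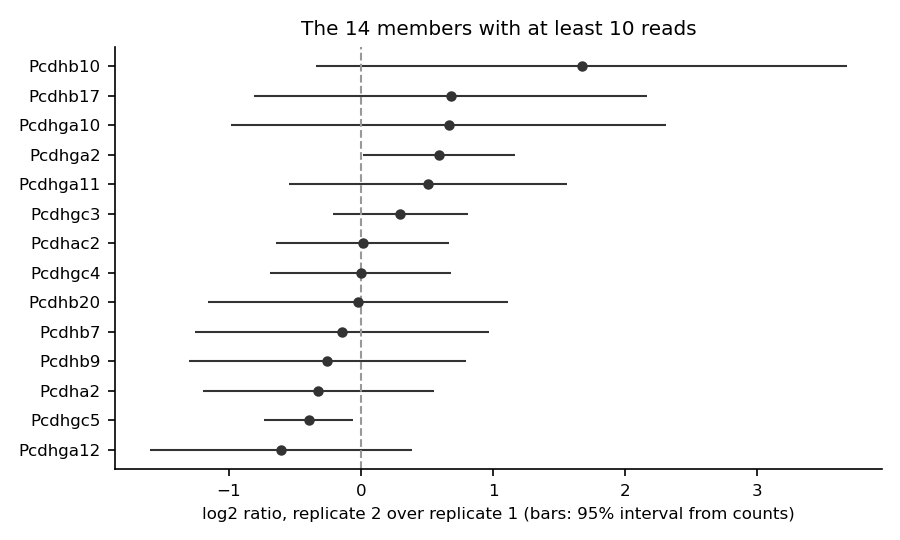
Log2 ratio of replicate 2 over replicate 1 for the 14 members with at least 10 reads, with 95% intervals from the counts and a dashed line at 0. The intervals of Pcdhgc5 and Pcdhga2 miss 0, those of the other 12 hold it, and none of the 14 passed the test after adjustment.

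Pcdha1, which is no member because replicate 1 had no read of that name, was called, with 0 reads in replicate 1 and 20 in replicate 2 (adjusted p = 0.00133 by Fisher's exact test). All 20 reads came from a single deposited model that holds only the last alpha constant exon, which every alpha gene shares. In replicate 1 the 6 reads of this kind were filed under Pcdhac2. No read of either library held the Pcdha1 variable exon.

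Names were then set against structure. A read was given to a gene only where its model held part of that gene's variable exon. A read with parts of more than 1 variable exon was given to the one joined to constant exon 1. Reads named after alpha and gamma members were 378 in replicate 1 and 435 in replicate 2. Of these, 83.3% and 78.4% were given to the named gene, 5.29% and 6.21% to another gene, and 11.4% and 15.4% to none. The mismatch fell on 2 names above all. Of the reads named Pcdha2, 1 of 21 in replicate 1 and 0 of 20 in replicate 2 were given to Pcdha2. In replicate 2, 1 more held the start of the Pcdha2 exon joined to the Pcdha12 exon. Of those named Pcdhga2, 36 of 37 and 66 of 67 held only the last gamma constant exon. The names Pcdhgc5 and Pcdhgc4 matched in every read.

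Some cluster reads carried names from outside the family. Gm42416, an annotated gene within the gamma cluster, was the deposited name of 14 reads in replicate 1 and 13 in replicate 2, of which 11 and 13 held a gamma variable exon. Gm38182 was the name of 16 and 13 reads that start in a short exon just before gamma constant exon 1 and splice into it. Counting all models on the plus strand that overlap cluster exons, whatever their name, gave 64 and 83 alpha reads, 75 and 98 beta reads, and 354 and 402 gamma reads.

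The usual form by model was the textbook one. A model was classed as whole if it held 1 variable exon, unbroken, up to its annotated end. The start was not checked. Known models carry annotated ends, so how much of the exon a single read held is not shown. A whole variable exon joined to constant exon 1 made up 65.3% of gamma reads in replicate 1 (231 of 354 reads) and 58.2% in replicate 2 (234 of 402), with 95% Wilson intervals of 60.2% to 70.0% and 53.3% to 62.9%. In alpha it made up 73.4% (47 of 64; 61.5% to 82.7%) and 61.4% (51 of 83; 50.7% to 71.2%). The intervals of the libraries overlapped in both clusters.

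Reads that held only the last constant exon came next in alpha by the mean over the libraries, though not in replicate 1, where parts of more than 1 variable exon had 7 reads. Those of the last constant exon alone were 6 reads (9.38%; 4.37% to 19.0%) in replicate 1 and 20 (24.1%; 16.2% to 34.3%) in replicate 2. In gamma they were 36 reads (10.2%; 7.44% to 13.8%) and 66 (16.4%; 13.1% to 20.4%). Replicate 2 had the higher share in both clusters, with overlapping intervals and no test. Such reads do not tell which variable exon, if any, the molecule carried. Counted over models with member names alone, the mean alpha share was 4.92%, since the Pcdha1 reads drop out. In each library they formed 1 deposited model per cluster, whose ends say nothing of single reads.

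Beta reads were single exons in 73 of 75 cases (97.3%; 90.8% to 99.3%) in replicate 1 and 96 of 98 (98.0%; 92.9% to 99.4%) in replicate 2. The spliced exceptions, 2 reads in each library, carried the names Pcdhb8, Pcdhb9, Pcdhb21 and Gm37388.

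**Figure D3:**
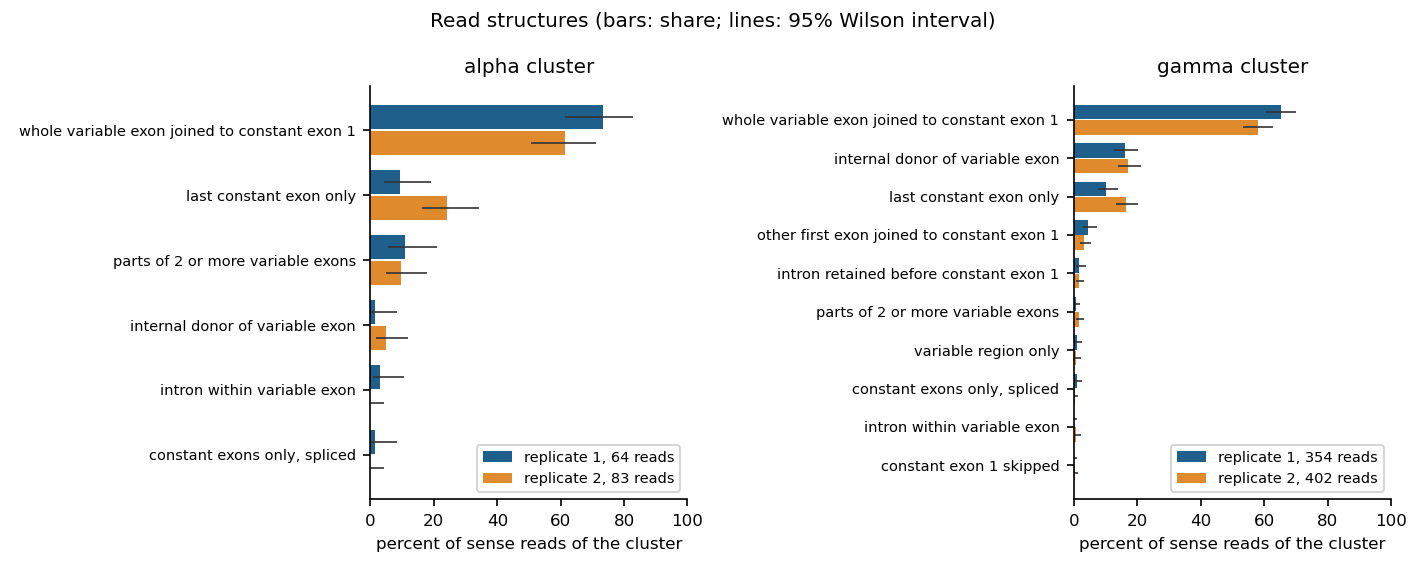
Share of each read structure among the sense reads of the alpha cluster (left) and the gamma cluster (right), as bars for replicate 1 and replicate 2 with 95% Wilson intervals. A whole variable exon joined to constant exon 1 leads in both clusters, at 73.4% and 61.4% in alpha and 65.3% and 58.2% in gamma. By the mean over the libraries, internal donors of a variable exon are second in gamma and the last constant exon alone is second in alpha, where in replicate 1 parts of more than 1 variable exon exceed it (7 reads against 6).

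Use of the variable exons was read from the models that join one to the constant region, 57 and 63 reads in alpha and 296 and 318 in gamma. C-type exons dominated both. The 2 alpha C-type exons took 75.4% (43 of 57; 62.9% to 84.8%) and 82.5% (52 of 63; 71.4% to 90.0%) of the joined alpha reads. The 3 gamma C-type exons took 79.7% (236 of 296; 74.8% to 83.9%) and 79.6% (253 of 318; 74.8% to 83.6%) of the joined gamma reads. By number these are 5 of the 36 variable exons in both clusters.

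In gamma, the Pcdhgc5 exon (chr18:37819513-37822134) took 152 reads (51.4%; 45.7% to 57.0%) in replicate 1 and 146 (45.9%; 40.5% to 51.4%) in replicate 2. The Pcdhgc3 exon (chr18:37806410-37808977) took 53 (17.9%) and 72 (22.6%), and the Pcdhgc4 exon (chr18:37815079-37817983) took 31 (10.5%) and 35 (11.0%). The order Pcdhgc5, Pcdhgc3, Pcdhgc4 was the same in both libraries. In each library the Wilson interval of Pcdhgc5 lay above that of Pcdhgc3, whereas those of Pcdhgc3 (14.0% to 22.7% in replicate 1) and Pcdhgc4 (7.48% to 14.5%) overlapped in replicate 1 and did not in replicate 2 (18.4% to 27.6% and 8.02% to 14.9%).

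The 12 gamma A exons together took 49 reads (16.6%; 12.8% to 21.2%) and 60 (18.9%; 14.9% to 23.5%), less than Pcdhgc5 alone. The 7 gamma B exons took 11 (3.72%) and 5 (1.57%). Among the gamma A and gamma B exons, Pcdhga12 had 17 and 15 reads and Pcdhga11 had 11 and 19, and no other exceeded 8 in a library. Only Pcdhga1, Pcdhgb2 and Pcdhgb5 had no joined read in either library, which allows each a share of up to 1.01% in replicate 1 and 0.943% in replicate 2.

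In alpha, the Pcdhac2 exon (chr18:37143503-37146530) took 39 of 57 reads (68.4%; 55.5% to 79.0%) in replicate 1 and 51 of 63 (81.0%; 69.6% to 88.8%) in replicate 2. That is more than the 34 and 41 reads named Pcdhac2, since others were filed under Pcdha2. The Pcdha12 exon (chr18:37020149-37022623), the last of the plain alpha exons, came second with 10 (17.5%; 9.82% to 29.4%) and 11 reads (17.5%; 10.0% to 28.6%). Of these, 7 and 8 also held part of another alpha variable exon upstream, and 2 and 1 were in models of the whole Pcdha12 exon. By name Pcdha12 had 2 and 1, and among Known models its mean share was 3.79%. Pcdhac1 had 4 and 1. Pcdha2, Pcdha6 and both the upstream and the downstream exon of Pcdha11 were joined directly to constant exon 1 in 1 read each in replicate 1. None was in replicate 2, where parts of Pcdha2, Pcdha6 and the downstream exon of Pcdha11 occur in reads counted under Pcdha12.

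The serotonergic neurons in which Pcdhac2 has been studied have their cell bodies in the brainstem, and their defining genes were at or near 0 in both libraries. Slc6a4 and Fev had 0 reads in each, and Tph2 had 0 and 2.

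Exons nearer the 3′ end of the cluster had more reads among the gamma A exons. Over these 12 exons in genomic order, Spearman's rho between position and reads was 0.88 in replicate 1 and 0.84 in replicate 2. Over the 7 gamma B exons it was 0.73 and 0.70, but on only 11 and 5 joined reads, so no order is read from them. No order can be read for the 12 plain alpha exons either. In replicate 2 all 11 of their reads were counted under Pcdha12, the last of them. The 22 beta genes showed no such order, with rho of −0.0046 and 0.14. These values describe exons of the same 2 libraries, most with under 10 reads, and were not tested.

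**Figure D4:**
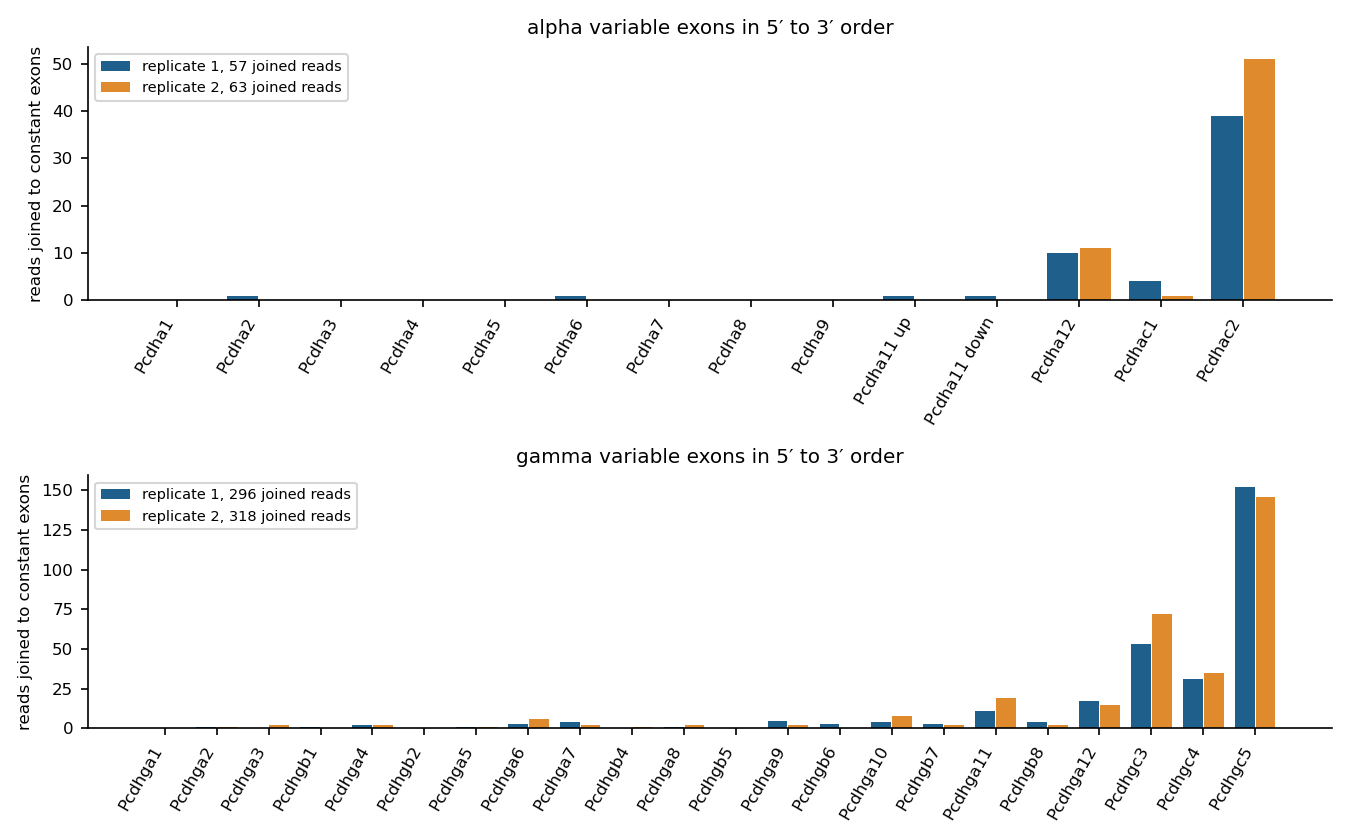
Reads that join each variable exon to the constant exons, in 5′ to 3′ order along the alpha cluster (top) and the gamma cluster (bottom), with paired bars for replicate 1 and replicate 2. The bars rise at the 3′ ends, with 39 and 51 reads for Pcdhac2 and 152 and 146 for Pcdhgc5, and most exons upstream have fewer than 10.

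The C-type exons differ in sequence from one another and from the rest. Their coding parts had a median identity of 50.1% over 10 pairs (49.2% to 54.0%), against 76.1% over the 66 pairs of plain alpha exons, 69.6% over the 66 pairs of gamma A exons and 70.4% over the 21 pairs of gamma B exons. The Pcdhgc5 exon has Pcdhgc4 as its nearest relative, at 54.0% identity.

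Pcdhgc5 had more than 1 common form. Of the reads that held its exon, 95 of 152 (62.5%) in replicate 1 and 79 of 147 (53.7%) in replicate 2 were in models of the whole exon joined to constant exon 1. Another 51 (33.6%; 26.5% to 41.4%) and 61 (41.5%; 33.8% to 49.6%) left the exon at an internal donor near its start, which removes most of its 2460 coding bases. Another 6 in each library retained the intron of 2886 bases before constant exon 1, and 1 read in replicate 2 skipped constant exon 1.

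The same internal-donor share was 3 of 53 (5.66%; 1.94% to 15.4%) and 4 of 72 (5.56%; 2.18% to 13.4%) for Pcdhgc3. For Pcdhgc4 it was 1 of 33 (3.03%; 0.537% to 15.3%) and 3 of 37 (8.11%; 2.80% to 21.3%). For Pcdhac2 it was 0 of 39 and 2 of 51 (3.92%; 1.08% to 13.2%). In both libraries the interval of Pcdhgc5 lay above those of these other exons.

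Most internal-donor reads of Pcdhgc5 left the exon after base 200 of 2622, with 33 reads in replicate 1 and 49 in replicate 2. A donor after base 186 had 15 and 6 reads, and those after bases 204 and 211 had 2 and 2 and 1 and 4. In the reference, the donor after base 200 is not followed by GT, the start of nearly all introns, while the acceptor has the usual AG and the other 3 donors have GT. For the donor after base 186, 6 bases next to the join were identical on its 2 sides, so the point of the join cannot be placed within them. The deposited tables class 48 of the 51 reads in replicate 1 and 52 of the 61 in replicate 2 as Known, so the annotation already holds internal-donor transcripts of Pcdhgc5. The origin of these reads was not tested.

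**Figure D5:**
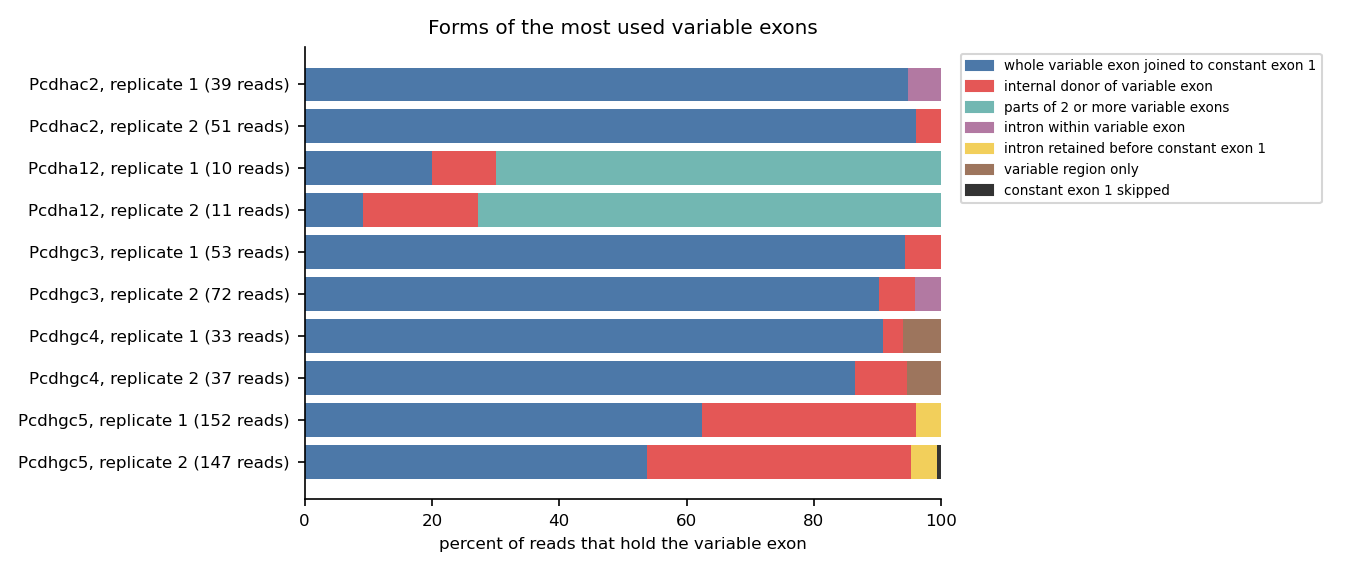
Forms of the reads that hold each of the most used variable exons, as stacked percentages with 1 bar per library and the number of reads in brackets. Pcdhgc5 has 33.6% and 41.5% of reads with an internal donor, Pcdha12 has mostly parts of more than 1 variable exon, and Pcdhac2, Pcdhgc3 and Pcdhgc4 are mostly whole exons joined to constant exon 1.

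Pcdha12 had a different pattern. Of its reads, 7 of 10 (70.0%; 39.7% to 89.2%) in replicate 1 and 8 of 11 (72.7%; 43.4% to 90.3%) in replicate 2 joined part of an alpha variable exon further upstream to part of the Pcdha12 exon. Another 2 and 1 were in models of the whole Pcdha12 exon. The joins took 9 distinct forms, all ending in Pcdha12, and started in Pcdha2, Pcdha4, Pcdha5, Pcdha6, Pcdha9 and the downstream exon of Pcdha11. All 9 had GT at the donor and AG at the acceptor in the reference. Yet the bases next to the join were identical on its 2 sides over 1 to 87 bases (median 81), and 7 of the 9 shared at least 5 bases, so in these the point of the join cannot be placed within the shared stretch.

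The 3′ side of Pcdha12 was irregular too. Of its reads, 8 of 10 and 8 of 11 left the exon 18, 22 or 35 bases before the annotated donor. The position 22 bases before it, with 5 reads in replicate 1 and 1 in replicate 2, has no GT in the reference. The origin of these reads was not tested. Most reads that join Pcdha12 to another variable exon come from models with a single read. Among models with at least 2 reads, reads with parts of more than 1 variable exon were 3.33% of alpha reads on average, against 10.3% over all models.

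In gamma, reads with parts of more than 1 variable exon were rarer, 2 of 354 (0.565%) and 6 of 402 (1.49%). Pcdhga8 joined to Pcdhga9 made up 3 of them, all in replicate 2, with 136 identical bases around the join. Pcdhgb7 joined to Pcdhgb8 made up 2 reads in each library, over 2 different joins with 1 and 24 identical bases.

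The last alpha constant exon (chr18:37184946-37187661) holds an annotated intron of 428 bases (chr18:37185048-37185475). Its removal is annotated in 6 transcripts. It was removed in 11 of 57 reads (19.3%; 11.1% to 31.3%) in replicate 1 and 12 of 63 (19.0%; 11.2% to 30.4%) in replicate 2. Among reads of the Pcdhac2 exon it was removed in 10 of 38 (26.3%; 15.0% to 42.0%) and 8 of 51 (15.7%; 8.17% to 28.0%), and among other exons in 1 of 18 (5.56%) and 4 of 12 (33.3%). The direction of the difference between Pcdhac2 and the other exons was opposite in the 2 libraries.

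In gamma, constant exon 2 started 3 bases upstream of its annotated acceptor in 2 of 312 reads (0.641%) and 6 of 332 (1.81%). Constant exon 3 started 3 bases downstream in 1 of 315 and 1 of 333, and constant exon 1 started 4 bases downstream in 3 of 304 and 2 of 323.

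Of 17 regulators of the clusters' promoters, 15 had a read in both libraries, 14 were tested and 0 were called by Fisher's exact test (median log2 ratio −0.15). The share called over all genes tested was 2.11%. The highest were Trim28, a corepressor that recruits histone methyltransferases (258 ± 7.86 CPM, SD, n = 2), Dnmt3a, a DNA methyltransferase (145 ± 20.6), and Smc1a, a cohesin subunit (51.5 ± 5.57). Tet1 had 5 reads and Dnmt3b 2 in replicate 1, and neither had one in replicate 2. Ctcf, which anchors the loops between enhancers and variable promoters, had 18 reads in replicate 1 and 29 in replicate 2.

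Of 17 intracellular partners, 16 were tested and 1 was called, with 2.11% called over all genes tested. Ptk2b, the kinase Pyk2, whose activity alpha and gamma tails restrain, had 173 reads in replicate 1 and 113 in replicate 2, a log2 ratio of −0.87 (−1.21 to −0.52; adjusted p = 1.07e-04 by Fisher's exact test). The highest partners were Marcks, an actin-binding substrate of protein kinase C (595 ± 65.5 CPM), Fyn, a Src-family kinase (277 ± 10.2), and Nckap1, a subunit of the WAVE complex that alpha tails bind (254 ± 13.2).

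Of 18 other protocadherin-type genes, which lie outside the clusters, 11 were tested and 1 was called, with 2.11% called over all genes tested. Pcdh7, the gene called, had 16 reads in replicate 1 and 3 in replicate 2 (log2 ratio −2.49, −4.16 to −0.83; adjusted p = 0.0414 by Fisher's exact test). The highest were Pcdh8 (131 ± 20.5 CPM), Celsr2 (66.8 ± 14.2) and Pcdh10 (45.2 ± 1.88). Of 9 classical cadherins 8 were tested, and Cdh2, the neural cadherin, was called with 76 and 38 reads (log2 ratio −1.24, −1.80 to −0.69; adjusted p = 0.00114 by Fisher's exact test). The highest were Cdh13 (148 ± 6.67 CPM), Cdh2 (69.6 ± 40.3) and Cdh10 (52.2 ± 15.6). Of 15 genes that neighbour the clusters 12 were tested and 0 were called, with Rell2 (230 ± 42.2 CPM), Hars (134 ± 25.8) and Hdac3 (114 ± 10.8) the highest.

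The libraries differed in markers of tissue next to the cortex. For the calls given here, the share over all genes tested was 2.11%. All 4 striatal markers tested (Ppp1r1b, Penk, Drd1 and Drd2) were lower in replicate 2 by Fisher's exact test, with a summed level of 809 CPM in replicate 1 and 202 in replicate 2 and Drd2 at 0 reads in replicate 2. Of 5 markers of cortical excitatory neurons, Nrgn was called higher in replicate 2 (1942 CPM in replicate 1 and 3525 in replicate 2), and it carried the difference in their sum (3497 and 5010 CPM): 2 of the 5 had a log2 ratio above 0, and the median was −0.06. Higher in replicate 2 were the sums for astrocytes (2304 and 2729 CPM, with Aldoc called of 4), meningeal fibroblasts (141 and 233 CPM, with Col3a1 called of 3) and choroid plexus (38.7 and 256 CPM, with Ttr called of 1). Of the markers of interneurons, microglia, endothelium and olfactory sensory neurons none was called, with Omp of the last at 0 reads in both libraries. The part of these differences in the values of Pcdhgc5, Ptk2b, Pcdh7 and Cdh2 was not tested.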

How the data were processed

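For each of 2 libraries of 1 group the authors deposited transcript models and whole-number read counts per model, not normalized. Per the labels the assembly is mm10, and the text deposited beside the tables names GENCODE M21. TALON is named in the deposited models; the aligner and its version: not given in the sources used here. Known models carry annotated ends, so read ends were not used. Counts were summed per deposited gene identifier, given here by its name, and scaled to all mouse reads (775048 and 924222; spike-in reads left out). Models were classified by exon overlap of at least 1 base with the annotated exons. The class of a whole variable exon asked for its annotated end, not its start. Fisher's exact test, two-sided, was run in SciPy 1.17.1 (Python 3.11.15) on genes whose summed reads reached 10, checked on simulated data. Log2 ratios add 0.5 reads. Shares carry 95% Wilson intervals, which cover counting error only; a count of 0 allows up to 3. Alternatives used edgeR 4.0.16 and DESeq2 1.42.0 scaling in R 4.3.3, other filters, Known models, and leaving out each library. Identities came from MAFFT 7.526 alignments of GENCODE M21 transcripts. No genomic sequence is printed.

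Members and gene lists were chosen with earlier results of these data known. Named genes were the C-type members, the 5 members with most reads in each group, members called, cluster genes with no read in a library and, of other lists, genes called and the 3 with the highest mean CPM. 1 marker list is not reported here.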

Additional observations from a re-analysis of the deposited data

Results flagged for a closer look

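Reads on the strand opposite to the clusters entered no comparison. Models on the minus strand over alpha exons held 7 reads in replicate 1 and 5 in replicate 2, and those over gamma exons held 8 and 6. Each of these exceeds the 3 reads that a count of 0 allows. No read lay opposite the beta exons. Some belong to annotated genes of the minus strand, such as Gm26672 and Gm38225.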

How the results depend on the processing

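Under the 6 alternatives run for the test (no filter on low counts, at least 20 reads, edgeR and DESeq2 scaling, Known models only, and reads that reach their own variable exon), 0 members were called, with the smallest adjusted p of a member between 0.279 and 0.521 by Fisher's exact test or, with edgeR and DESeq2 scaling, an exact binomial test. In that order, the calls over all genes were 189 of 18366, 244 of 9126, 234 of 11203, 242 of 11203, 159 of 8526 and 235 of 11201. The members tested were 33, 11, 14, 14, 12 and 13, so few that 0 calls says little about them. With reads that reach their own variable exon, 0 members had an unadjusted p under 0.05, against 2 in the result as reported. Pcdha1 was called under each of the 4 alternatives that still tested it.

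With Known models only, the mean level was 45.8 CPM for alpha and 337 CPM for gamma, Pcdhac2 took 84.5%, Pcdha12 3.79% and Pcdhgc4 11.1% of joined reads. With models of any gene name, the levels were 86.2 CPM for alpha, 101 CPM for beta and 446 CPM for gamma. Requiring 1000 bases of the variable exon by construction drops reads that leave the exon before base 1000, as all internal-donor reads of Pcdhgc5 do. It gave Pcdhgc5 38.3%, Pcdhgc3 24.0%, Pcdhgc4 12.8%, gamma A 21.9% and Pcdha12 17.1%. The bases were counted on models, and Known models carry annotated ends, so this setting does not show how far single reads reached. Over models with at least 2 reads, parts of more than 1 variable exon made up 3.33% of alpha reads and the intron in the last alpha constant exon was removed in 17.5%. Over models with member names only, an alternative chosen after seeing the data, a whole variable exon made up 76.5% and the last constant exon alone 4.92% of alpha reads, parts of more than 1 variable exon 12.1%, and internal donors 15.4% of gamma reads. The cause of the moves other than those by construction was not tested.

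No paired analysis was possible because the labels give 1 group. With 2 libraries, leaving out either gives the other's value, which says nothing of stability. A gene with 0 reads of its name was not detectable by name at this depth, and shares in alpha rest on fewer than 100 reads per library.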
